A study of Mus musculus with 8 samples.

Results

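Microtubule-associated proteins bind, stabilise, bundle or dismantle the microtubules that carry transport and give axons and dendrites their shape. The genes described here are 10 of the 22430 in the deposited table of mouse brain gene counts: the structural proteins Map2, Mapt and Map4, the MAP1 family members Map1a, Map1b and Map1s, the stabilising proteins Map6 and Map7d1, and the tubulin-binding stathmins Stmn1 and Stmn2. They are listed by name and were matched by Ensembl identifier to GENCODE symbols. All 10 passed the filter on low counts, as did 16730 genes in total. RNA came from 4 male C57Bl/6JRj mice aged 6 months (6m, young adult) and 4 aged 24 months (24m), with no treatment or genetic change given for either age. The labels call the tissue whole brain, and the protocol states that a hemisphere of each animal was used, so each library mixes all cell types of the tissue and only 1 sex was sampled. Polyadenylated RNA was read as paired ends, to a depth of 63460940 to 103462414 counts per library.

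As background, microtubules are polymers of tubulin that grow and shrink at their ends. MAP2 and tau (Mapt) stabilise them in dendrites and axons of neurons respectively, MAP4 does so more broadly across tissues, and stathmins remove tubulin from the pool that can assemble. MAP1B and stathmins are known for high expression in the growing brain, whereas MAP2 and MAP1A are classical proteins of mature dendrites.

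One library stood apart from the rest of its age. Gene-level deviations from the mean of all libraries ran against exonic length in the 6m libraries (Spearman rho -0.42 to -0.34 over 16677 genes) and along it in 24m replicates 2 to 4 (0.40 to 0.47), with 24m replicate 1 at -0.10. Fold changes of all genes accordingly ran with exonic length (rho 0.42) and more closely with the length of the canonical transcript (rho 0.56). Most members are long, with canonical transcripts of 1788 bases (Stmn1) to 11893 bases (Map1b), against a median of 3293 bases over all genes tested. The members are therefore given with and without 24m replicate 1 and with the length trends removed, and the gene lists as counts, while single list genes are given from the fit of all libraries. Beyond those values the part of length in the results was not tested. Ratios between members and their shares of the summed level are given without removal of a length trend.

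Which members differ in abundance between the ages was asked first. Map2, Map1a and Map4 were higher at 24m, Map1b and Stmn1 were lower, and Mapt, Map1s, Map6, Map7d1 and Stmn2 were not called. To be called, a gene needed a p from edgeR's quasi-likelihood test that was no higher than 0.05 after Benjamini-Hochberg adjustment over all genes, and a log2 fold change at least 0.58 in size. Both limits are those of the study. The 3 higher and 2 lower members stand beside a background in which 43.6% of all tested genes were called, 25.3% higher and 18.3% lower, so the count of members called is close to the background. By adjusted p alone, the same 5 of 10 members passed, against 62.6% of all genes. All 4 libraries of 24m lay above all 4 of 6m for 3 members and below them for 3 (the called genes and Stmn2), where 55.2% of all genes did not overlap between the ages, 28.4% above and 26.8% below. The median log2 fold change of the members was 0.09, against -0.0034 over all genes, and its median size was 0.49 against 0.54. Each of the 5 calls held in every fit that left out 1 library. In bulk tissue, fewer cells of a type and less RNA per cell cannot be told apart, and this applies to each value below.

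**Figure D1:**
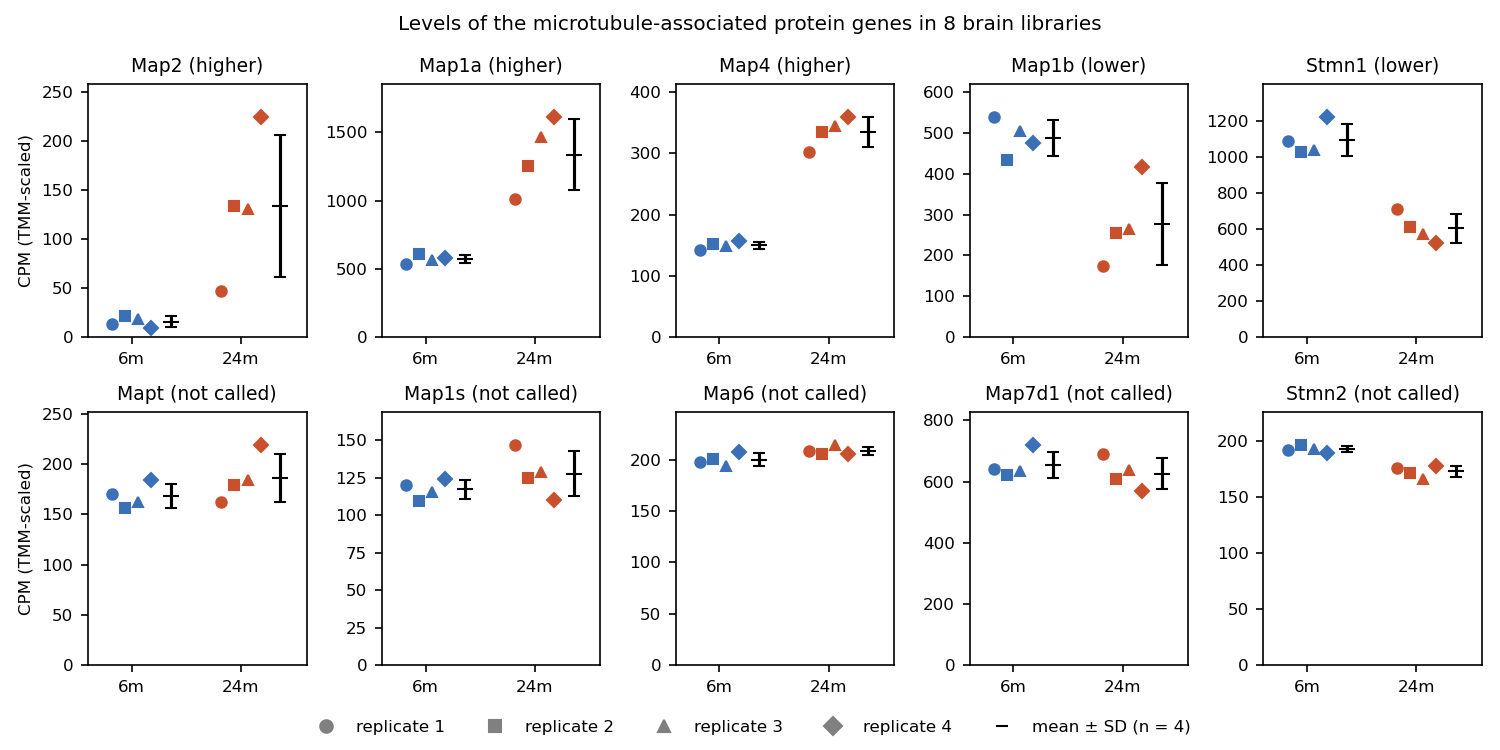
Level of each member in the 8 libraries, in CPM with TMM scaling on linear axes from 0. Points are libraries, shaped by replicate, and the black bars give mean ± SD of 4 libraries per age. Map2, Map1a and Map4 lie higher at 24m and Map1b and Stmn1 lower without overlap, and Stmn2 does not overlap either (192 ± 2.85 at 6m, 173 ± 4.98 at 24m).

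Map2, Mapt and Map4 share a repeated microtubule-binding motif, and they are shown together because the members of this family did not change alike. The 82-base exon below lies in the repeat region of each gene. Sequences are from the GENCODE transcripts on GRCm39, 5′ to 3′ on the strand of the gene, with capitals where all 3 genes have the same base (45 of 82). The exons are Mapt exon 9 (chr11:104212177-104212258), Map2 exon 13 (chr1:66472673-66472754) and Map4 exon 17 (chr9:109907071-109907152), all on the plus strand and numbered in the canonical transcript.
Mapt: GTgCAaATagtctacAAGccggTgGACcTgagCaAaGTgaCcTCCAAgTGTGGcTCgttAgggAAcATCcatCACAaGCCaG
Map2: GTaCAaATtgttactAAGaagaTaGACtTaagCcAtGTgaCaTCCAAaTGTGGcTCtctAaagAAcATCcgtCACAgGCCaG
Map4: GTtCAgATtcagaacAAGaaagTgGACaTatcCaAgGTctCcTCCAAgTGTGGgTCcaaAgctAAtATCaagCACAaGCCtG
In pairs, Mapt and Map2 had 73.2% identical bases, Mapt and Map4 67.1% and Map2 and Map4 61.0%. The longest exact run common to any pair of their canonical transcripts was 15 bases (Map2 with Mapt).

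Map2 (ENSMUSG00000015222, chr1:66214327-66481746, plus strand), the dendritic MAP, had the largest fold change of the members and ranked 47 of 16730 genes. Its level was 13.9, 21.8, 18.0 and 9.40 CPM (counts per 1e+06 counts of the TMM-scaled library) in the 6m libraries, in the order of replicates 1 to 4 used throughout, and 46.9, 134, 131 and 224 CPM in the 24m libraries. Every 24m library therefore lay above every 6m library, with replicate 1 the lowest and replicate 4 the highest of its age. The underlying counts were 621 to 1540 at 6m and 4862 to 19543 at 24m. On average Map2 rose from 15.8 ± 5.34 to 134 ± 72.3 CPM (SD, n = 4 each), an 8.50-fold ratio of means, and the log2 fold change was 3.09 ± 0.44 (SE, edgeR adjusted p = 0.000339). It was also the member with the widest spread within an age, with a coefficient of variation of 33.9% at 6m and 54.0% at 24m. Without 24m replicate 1, the 24m mean was 163 ± 52.8 CPM and the log2 fold change 3.38. Removing the trend over exonic length gave 2.37, and over canonical transcript length 2.25, and both stayed past the thresholds.

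Map4 (ENSMUSG00000032479, chr9:109751712-109913023, plus strand), the MAP with the broadest tissue range, rose from 150 ± 6.03 to 335 ± 24.1 CPM, a 2.24-fold ratio. Single libraries read 142, 152, 148 and 156 CPM at 6m and 302, 334, 345 and 359 CPM at 24m. The replicates of each age were thus close together and the ages far apart. Its log2 fold change was 1.16 ± 0.08 with an edgeR adjusted p of 2.02e-05, the smallest of the members. With the exonic-length trend removed the value was 0.60, which still passed. With the trend over canonical transcript length removed, an alternative chosen after seeing the data, it was 0.44 and below the fold threshold (edgeR adjusted p = 0.0122). Without 24m replicate 1 it was 1.22.

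Mapt (ENSMUSG00000018411, chr11:104122024-104222946, plus strand) encodes tau, the axonal MAP that forms tangles in tauopathies. It read 171, 156, 162 and 184 CPM at 6m and 162, 179, 184 and 219 CPM at 24m. The ages overlapped, and the log2 fold change of 0.14 ± 0.10 was not called (edgeR adjusted p = 0.243). Removing the exonic trend turned its sign, to -0.37 (edgeR adjusted p = 0.0125), as did the canonical one, to -0.50 (edgeR adjusted p = 0.00174). Both were under the fold threshold. The value was 0.22 without 24m replicate 1 and 0.06 without 24m replicate 4. It was 0.37 with library totals (edgeR adjusted p = 0.0192) and 0.30 after quantile normalization with DESeq2 (adjusted p = 0.0387), both under the fold threshold, or 0.16 and 0.40 relative to the median of all genes.

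The balance between Map2 and Mapt was read within each library, where scaling between libraries does not enter. There were 0.0813, 0.139, 0.111 and 0.0512 Map2 counts per Mapt count at 6m, against 0.290, 0.747, 0.711 and 1.02 at 24m. All 24m values lay above all 6m values, with replicate 1 the lowest and replicate 4 the highest of the 24m libraries. The mean log2 ratio was higher at 24m by 2.81 (exact two-sided permutation p = 0.0286 over 70 assignments, the smallest it can give, n = 4 each), and by 3.19 without 24m replicate 1. Adjusted over the 4 ratios tested, the exact p is the same value, 0.0286.

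The MAP1 family showed opposite changes in its large brain members. Map1a and Map1b encode precursors that are cut into a heavy chain and a light chain, and the segment shown ends at the last coding base before the stop codon, in the light chain part. It was chosen to show how alike the coding sequences of these oppositely changed genes are: 120 of 153 bases were identical (78.4%, capitals), with the longest run in the segment at 14 bases. Map1a is from exon 6 (chr2:121138413-121138565, plus strand) and Map1b from exon 7 (chr13:99562317-99562469, minus strand, given as transcribed) on GRCm39.
Map1a: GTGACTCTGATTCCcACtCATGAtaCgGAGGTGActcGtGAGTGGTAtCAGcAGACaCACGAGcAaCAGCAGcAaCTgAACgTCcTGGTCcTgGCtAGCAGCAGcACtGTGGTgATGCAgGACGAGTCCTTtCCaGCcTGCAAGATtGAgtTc
Map1b: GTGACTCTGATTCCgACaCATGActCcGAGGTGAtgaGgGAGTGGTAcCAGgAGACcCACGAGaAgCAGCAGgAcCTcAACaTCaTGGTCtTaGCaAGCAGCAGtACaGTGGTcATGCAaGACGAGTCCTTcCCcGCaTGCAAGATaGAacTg
Across the whole canonical transcripts the longest exact run in common was 26 bases.

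Map1a (ENSMUSG00000027254, chr2:121120071-121141313, plus strand), the MAP1 form of mature neurons, read 537, 606, 565 and 582 CPM in the 6m libraries and 1012, 1252, 1468 and 1609 CPM in the 24m libraries. No 24m library came near the 6m range. Map1a rose 2.33-fold, from 572 ± 29.0 to 1335 ± 261 CPM, or by 1.22 ± 0.14 on the log2 scale (edgeR adjusted p = 0.000118). The value was 1.34 without 24m replicate 1 and 0.76 with the exonic-length trend removed. With the canonical-length trend removed it was 0.46, below the fold threshold (edgeR adjusted p = 0.00271).

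Map1b (ENSMUSG00000052727, chr13:99557954-99653137, minus strand), the MAP1 form of growing axons, had 538, 434, 504 and 477 CPM at 6m and 175, 255, 264 and 416 CPM at 24m. The highest 24m library, replicate 4, came close to the lowest 6m library, replicate 2, and the other 24m libraries lay well below. Map1b fell from 488 ± 44.1 to 278 ± 101 CPM, with a log2 fold change of -0.81 ± 0.22 and an edgeR adjusted p of 0.00924. Leaving out single libraries gave -1.08 to -0.64. Its canonical transcript is the longest of the members, and removing the length trends moved it further down, to -1.43 (exonic) and -1.62 (canonical). The call was lost with library totals alone (-0.577, edgeR adjusted p = 0.0680) and after quantile normalization with DESeq2 (-0.48, adjusted p = 0.119). Library totals shift the median of all genes by 0.21, and relative to that median Map1b stood at -0.79. After quantile normalization the median was -0.10, and relative to it Map1b stood at -0.38.

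Within libraries, the balance of Map1a and Map1b restates their opposite changes. In every 24m library Map1a lay above, and Map1b below, all 6m libraries. The ratio therefore could not overlap between the ages, and its exact p below was fixed by those values. The count ratio of Map1a to Map1b was 0.998, 1.40, 1.12 and 1.22 at 6m, against 5.78, 4.91, 5.56 and 3.87 at 24m. The difference in mean log2 ratio was 2.08 (exact two-sided permutation p = 0.0286, adjusted p = 0.0286 over 4 ratios) and 2.01 without 24m replicate 1.

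Map1s (ENSMUSG00000019261, chr8:71358576-71375175, plus strand), the small and widely expressed MAP1 member, read 120, 109, 115 and 125 CPM at 6m and 147, 125, 129 and 110 CPM at 24m. The ages overlapped, with 24m replicate 1 the highest of all 8 libraries. Its log2 fold change of 0.12 ± 0.10 was not called (edgeR adjusted p = 0.284), and it read 0.06 without that library. With the exonic-length trend removed the value was -0.25 and with the canonical trend -0.0048. It was 0.34 with library totals (edgeR adjusted p = 0.00201) and 0.22 after quantile normalization with DESeq2 (adjusted p = 0.0158), both under the fold threshold, or 0.12 and 0.32 relative to the median of all genes.

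**Figure D2:**
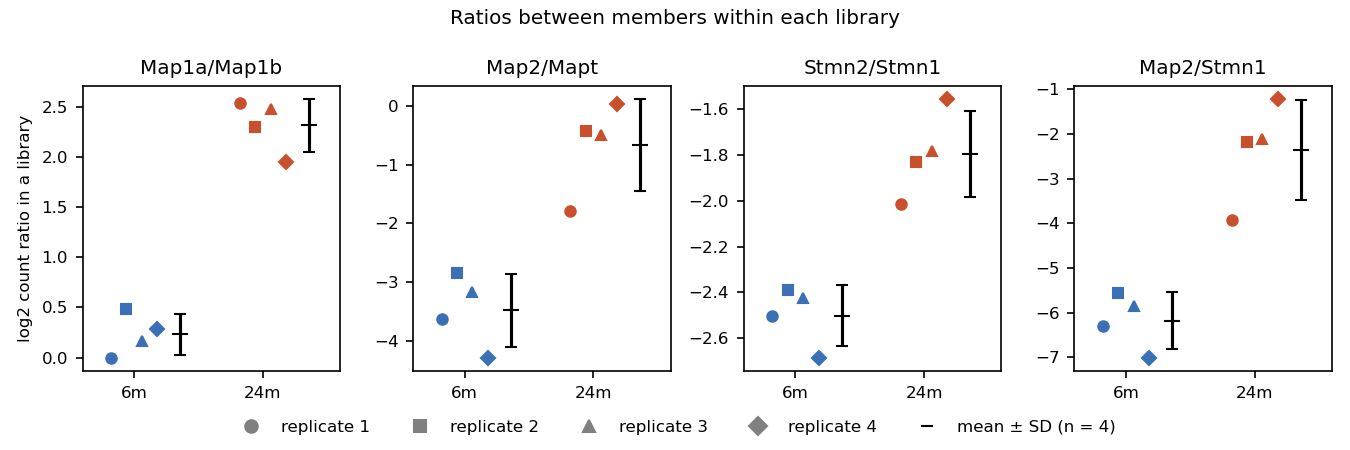
Log2 ratio of the counts of a pair of members within each library, by age, for the 4 ratios tested. Points are libraries, bars are mean ± SD (n = 4), and the axes do not start at 0. Each ratio lies higher in all 24m libraries, by 2.08 for Map1a/Map1b, 2.81 for Map2/Mapt, 0.71 for Stmn2/Stmn1 and 3.81 for Map2/Stmn1. For Map1a/Map1b and Map2/Stmn1 this follows from the opposite changes of the members, which did not overlap between the ages.

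The stathmins are small proteins that bind tubulin dimers and promote disassembly until they are phosphorylated. Stmn1 is broadly expressed in proliferating cells and neurons, and Stmn2 is a neuronal, membrane-bound form of growing axons. Exon 3 of each gene, 173 bases long, carries part of the stathmin-like region and is shown because the pair has the longest exact run in common of any members. Of its bases 113 were identical (65.3%, capitals), with a longest run of 20 within the exon. Positions on GRCm39 are chr4:134197978-134198150 for Stmn1 and chr3:8610633-8610805 for Stmn2, both on the plus strand.
Stmn1: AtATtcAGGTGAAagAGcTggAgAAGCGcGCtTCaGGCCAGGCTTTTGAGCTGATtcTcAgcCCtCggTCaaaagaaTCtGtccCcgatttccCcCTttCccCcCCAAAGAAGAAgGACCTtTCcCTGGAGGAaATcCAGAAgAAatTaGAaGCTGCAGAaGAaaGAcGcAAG
Stmn2: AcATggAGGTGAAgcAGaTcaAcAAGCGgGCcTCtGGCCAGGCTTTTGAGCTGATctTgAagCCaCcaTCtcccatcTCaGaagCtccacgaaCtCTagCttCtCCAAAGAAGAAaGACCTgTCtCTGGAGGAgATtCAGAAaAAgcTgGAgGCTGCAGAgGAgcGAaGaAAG
Over the canonical transcripts that run was 43 bases, the longest of the 45 pairs of members.

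Stmn1 (ENSMUSG00000028832, chr4:134195021-134201882, plus strand) read 1086, 1027, 1036 and 1217 CPM at 6m. At 24m it read 710, 609, 572 and 522 CPM, so that the highest 24m library was far below the lowest 6m library. Stmn1 fell from 1091 ± 87.7 to 603 ± 79.9 CPM, with a log2 fold change of -0.86 ± 0.11 and an edgeR adjusted p of 0.000231. The value was -0.93 without 24m replicate 1 and -0.88 with the exonic-length trend removed. It missed the fold threshold with the canonical-length trend removed (-0.48, edgeR adjusted p = 0.000266) and after quantile normalization with DESeq2 (-0.51, adjusted p = 9.78e-15). Copies of its transcript lie elsewhere in GRCm39: 970 aligned bases are 99.5% identical at chr4:69843438-69844407 (the pseudogene Gm11223), and copies of 93.6% and 85.7% identity lie on chr17 and chr9. How reads with several matches were counted is not stated in the sources used here, so the level of Stmn1 carries that uncertainty. A long noncoding gene on the opposite strand, 1700021N21Rik, also shares 699 exonic bases with it.

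Stmn2 (ENSMUSG00000027500, chr3:8574151-8626667, plus strand) had the narrowest spread at 6m of any member, with a coefficient of variation of 1.48%. It read 192, 196, 193 and 189 CPM at 6m and 176, 171, 166 and 177 CPM at 24m. All 24m libraries lay below all 6m libraries, yet the difference was small, at -0.16 ± 0.07 on the log2 scale, and was not called (edgeR adjusted p = 0.0604). DESeq2 gave the same size (-0.16) with an adjusted p of 0.00175, still under the fold threshold. The value was -0.15 without 24m replicate 1 and -0.25 with the exonic-length trend removed, and -0.39 with the GC trend removed (edgeR adjusted p = 0.002). Its sign turned with library totals (0.06, or -0.15 relative to the median of all genes) and with the canonical-length trend removed (0.10).

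The stathmin ratio also moved with age. Stmn2 counts per Stmn1 count were 0.177, 0.191, 0.186 and 0.155 at 6m and 0.247, 0.281, 0.291 and 0.340 at 24m. All 24m values lay above all 6m values, with a difference in mean log2 ratio of 0.71 (exact two-sided permutation p = 0.0286, adjusted p = 0.0286 over 4 ratios) and 0.78 without 24m replicate 1. Map2 counts per Stmn1 count spanned the widest range, from 0.00775 to 0.0212 at 6m and from 0.0661 to 0.429 at 24m. The log2 difference was 3.81 (exact permutation p = 0.0286, adjusted 0.0286), and 4.33 without 24m replicate 1. That p was fixed as well, since Map2 lay above and Stmn1 below all 6m libraries in every 24m library. The canonical transcripts are 9705 bases (Map2) and 1788 bases (Stmn1) long, and no length trend was removed from this ratio. With the canonical-length trend removed, the log2 fold changes of the members were 2.25 (Map2) and -0.48 (Stmn1).

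The remaining members, Map6 and Map7d1, were not called. Map6 (ENSMUSG00000055407, chr7:98916530-98986344, plus strand) encodes the protein that makes neuronal microtubules resist cold. It read 198, 201, 193 and 208 CPM at 6m and 209, 206, 214 and 206 CPM at 24m, with overlap (log2 fold change 0.06 ± 0.07, edgeR adjusted p = 0.446). Map7d1 (ENSMUSG00000028849, chr4:126123036-126150302, minus strand) belongs to the MAP7 family, which recruits kinesin-1 to microtubules. It read 641, 622, 636 and 719 CPM at 6m and 689, 608, 637 and 570 CPM at 24m, also with overlap (log2 fold change -0.06 ± 0.09, edgeR adjusted p = 0.551). The sign of both values depended on the processing. Map6 was 0.07 without 24m replicate 1, -0.35 with the exonic-length trend removed (edgeR adjusted p = 0.0147) and -0.12 with the canonical one (edgeR adjusted p = 0.132). With library totals Map6 was 0.28 (edgeR adjusted p = 0.00311) and after quantile normalization with DESeq2 0.21 (adjusted p = 0.00252), under the fold threshold in both, or 0.07 and 0.31 relative to the median of all genes. Map7d1 was -0.10 without 24m replicate 1 and -0.30 with the exonic-length trend removed (edgeR adjusted p = 0.0337). It was 0.15 with library totals (edgeR adjusted p = 0.0457) and 0.29 after quantile normalization with DESeq2 (adjusted p = 2.23e-06), or -0.06 and 0.39 relative to the median of all genes. With the canonical-length trend removed, Map7d1 passed both thresholds as lower (-0.68, edgeR adjusted p = 0.00549).

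**Figure D3:**
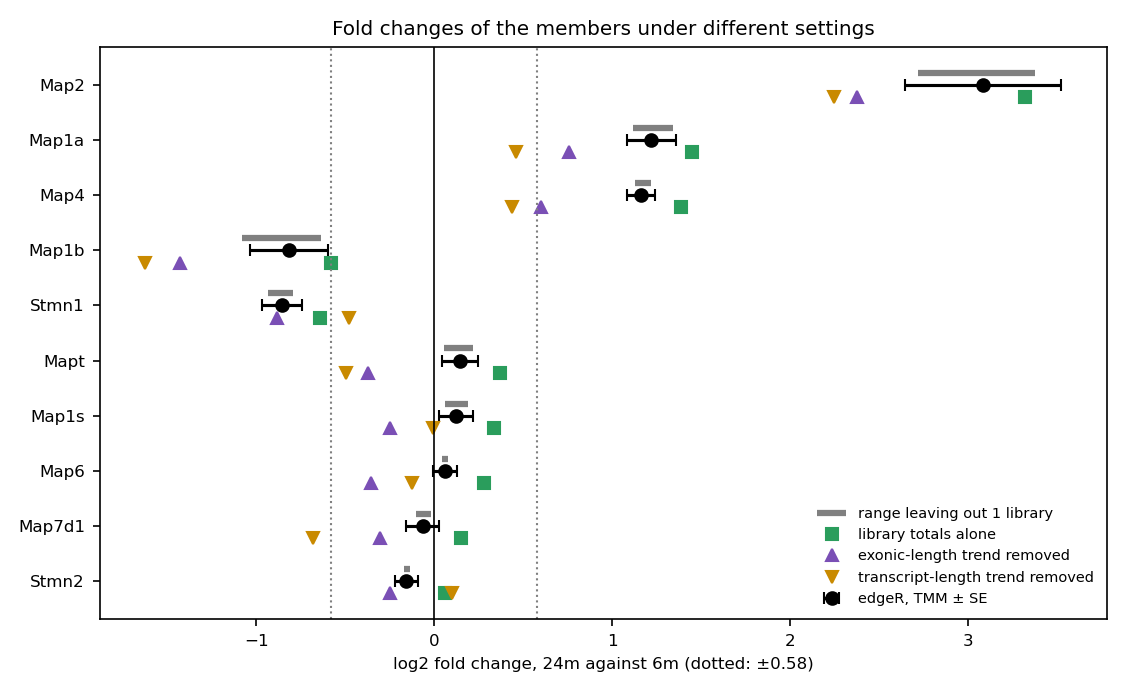
Log2 fold change of each member, 24m against 6m. Black points are the edgeR values with SE bars, grey bars the range when 1 library is left out, squares library totals, and triangles the fits with a length trend removed (upward, exonic length; downward, canonical transcript length). Dotted lines mark the fold threshold of 0.58. Map2 stays above it throughout, from 2.25 to 3.38, and Map1b below 0 throughout.

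Removing the exonic-length trend left the same counts of members called, 3 higher and 2 lower, where 21.3% of all genes were then called higher and 17.2% lower. Removing the canonical-length trend left 1 member called higher (Map2) and 2 called lower (Map1b and Map7d1), where 18.1% of all genes were called higher and 14.5% lower. Scaling also shifted the balance over all genes: 58.1% of called genes were higher, against 75.7% with library totals and 47.9% after quantile normalization with DESeq2. Under both of these scalings Map2, Map1a and Map4 were still called higher, with log2 fold changes of 3.32, 1.45 and 1.38 and of 3.08, 1.57 and 1.39 respectively. Antisense neighbours share exonic bases with several members, namely Map7d1 (367 with Gm57069), Map1b (326 with Gm26559), Map1a (309 with Ppip5k1), Map2 (124 with Gm10558), Mapt (121 with Gm11659 and 101 with Gm72530) and Map6 (81 with Gm26705). Whether the counting used strand is not stated in the sources used here, so such reads cannot be assigned with certainty.

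To place the members in order, levels were taken per length, as CPM per kilobase of the canonical transcript. At 6m the order was Stmn1 (610 ± 49.1 CPM per kb, SD, n = 4), Map7d1 (101 ± 6.74), Stmn2 (89.9 ± 1.33), Map6 (56.2 ± 1.72), Map1a (49.6 ± 2.51), Map1b (41.0 ± 3.70), Map1s (35.4 ± 1.96), Mapt (26.5 ± 1.88), Map4 (16.3 ± 0.657) and Map2 (1.62 ± 0.550). Of these neighbours, only Map1b and Map1s overlapped in their library ranges. At 24m the order was Stmn1 (337 ± 44.7 CPM per kb), Map1a (116 ± 22.6), Map7d1 (96.2 ± 7.70), Stmn2 (80.7 ± 2.33), Map6 (58.7 ± 1.10), Map1s (38.5 ± 4.52), Map4 (36.5 ± 2.62), Mapt (29.3 ± 3.76), Map1b (23.3 ± 8.46) and Map2 (13.8 ± 7.45). Map1a overlapped Map7d1 there, and from Map1s downward each gene overlapped the next. Per kilobase, Stmn1 was thus the most abundant and Map2 the least at either age. With exonic length in place of the canonical transcript the first and last places were the same, and the 24m range of Stmn1 (104 to 141 CPM per kb) then overlapped that of Map1a (83.0 to 132).

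Summed over the 10 members, the level was 3650 ± 151 CPM at 6m and 4006 ± 335 CPM at 24m, and the ranges of the ages overlapped (3525 to 3866 and 3628 to 4412 CPM). The make-up of this sum differed between the ages. Stmn1 made up 29.9 ± 1.14% at 6m and 15.3 ± 3.29% at 24m, whereas Map1a made up 15.7 ± 1.08% and 33.1 ± 3.91%. Map1b went from 13.4 ± 1.26% to 6.82 ± 1.92%, and Map4 from 4.10 ± 0.178% to 8.37 ± 0.208%. Map2 contributed 0.437 ± 0.161% and 3.26 ± 1.55%, and Mapt 4.61 ± 0.145% and 4.64 ± 0.230%. Of the 24m libraries, replicate 1 held the most Stmn1 (19.6%) and the least Map1a (27.9%). Shares are of counts, in which long transcripts weigh more, and no length trend was removed from them. With the canonical-length trend removed, the log2 fold changes of Map1a (0.46) and Stmn1 (-0.48) missed the fold threshold.

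**Figure D4:**
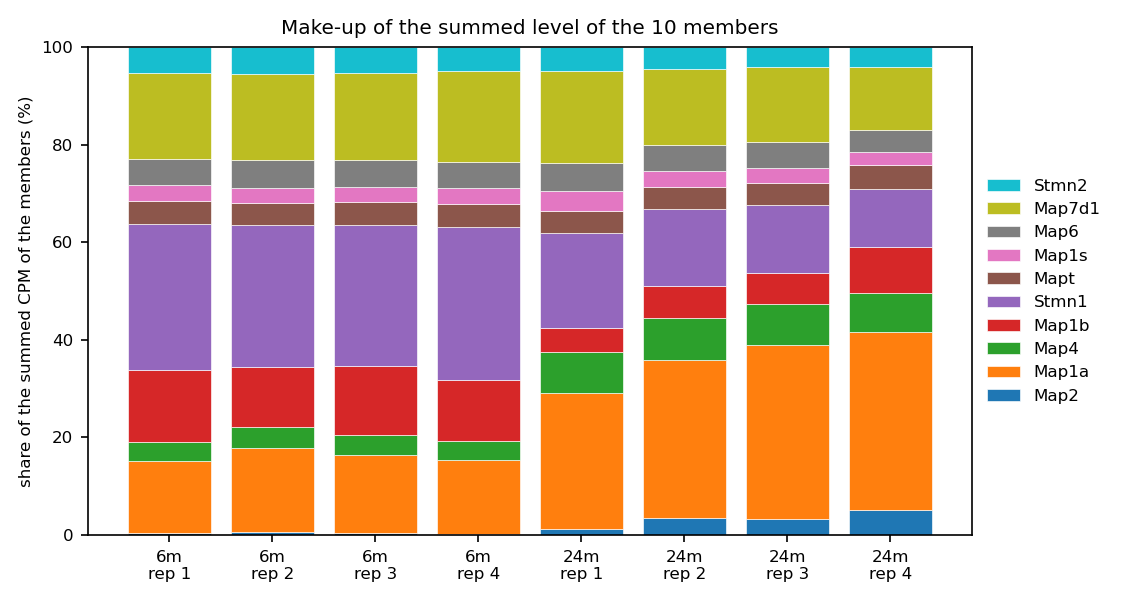
Share of each member in the summed CPM of the 10 members, in percent, for each of the 8 libraries. Stmn1 takes 29.0 to 31.5% in the 6m libraries and 11.8 to 19.6% in the 24m libraries, and Map1a 14.8 to 17.2% and 27.9 to 36.5%.

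The other genes that act on microtubules were read from 9 lists, with 88 of 89 genes tested (Map7d3 did not pass the filter on low counts). Of these, 43 were higher at 24m (48.9%), 8 lower (9.09%) and 37 not called, with a median log2 fold change of 0.52, beside 25.3% higher, 18.3% lower and a median of -0.0034 over all genes. Without 24m replicate 1 the counts were 45 and 9 (51.1% and 10.2%, beside 27.8% and 21.9% of all genes), and of the 9 lists only the severing and tubulin-modifying enzymes had other counts than with all libraries. The counts changed when a length trend was removed. With the exonic-length trend removed 27 were higher (30.7%) and 16 lower (18.2%), beside 21.3% and 17.2% of all genes. With the canonical-length trend removed 23 were higher (26.1%) and 15 lower (17.0%), beside 18.1% and 14.5% of all genes. In each list the called genes with the highest and lowest values are named, and every gene of lists of up to 4.

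Among 10 further MAP-named genes, 6 were higher and 2 lower (60% and 20%, beside 25.3% and 18.3% of all genes, median log2 fold change 0.83). With either length trend removed 3 were higher and 2 lower (30% and 20%). Of all genes 21.3% and 17.2% were then called with the exonic-length trend removed, and 18.1% and 14.5% with the canonical one. Map6d1, a small relative of Map6, rose from 6.93 ± 0.423 to 18.1 ± 3.16 CPM (log2 fold change 1.38 ± 0.14, edgeR adjusted p = 6.94e-05). Map9, a spindle and ciliary MAP, fell from 45.3 ± 4.48 to 20.2 ± 1.44 CPM (-1.16 ± 0.10, edgeR adjusted p = 3.34e-05). The 2 remaining stathmins did not overlap between the ages, with 24m below, as held for 26.8% of all genes. Stmn3, a neuronal stathmin, fell from 1976 ± 217 to 1024 ± 269 CPM (log2 fold change -0.95 ± 0.17, edgeR adjusted p = 0.00124). Stmn4 was not called, at 378 ± 7.35 and 265 ± 14.2 CPM (-0.51 ± 0.07, edgeR adjusted p = 0.000344), because its value missed the fold threshold. Both were called lower with the exonic-length trend removed and 0 with the canonical one (1 at an unadjusted p under 0.05, edgeR, the single tool run with these offsets).

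The doublecortin family, microtubule binders of migrating and mature neurons, had all 4 genes called higher, beside 25.3% of all genes. With the exonic-length trend removed 2 were, beside 21.3% of all genes, and with the canonical one 0 (3 at an unadjusted p under 0.05, edgeR), beside 18.1%. Dclk1 rose from 89.8 ± 14.0 to 182 ± 43.5 CPM (log2 fold change 1.02 ± 0.18), Dclk2 by 0.67 ± 0.10 and Dclk3 by 0.72 ± 0.17 on the log2 scale, with edgeR adjusted p of 0.00108, 0.00054 and 0.00468. The ages overlapped for Dclk3, at 18.6 to 25.8 CPM and 25.7 to 42.8 CPM. Dcx, the marker of new neurons, rose by 1.95 ± 0.58 on the log2 scale (edgeR adjusted p = 0.0145) at a very low level, 0.125 ± 0.0641 CPM at 6m and 0.492 ± 0.309 CPM at 24m, with overlap between the ages.

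Of 17 plus-end tracking and lattice proteins, 13 were higher and 1 lower (76.5% and 5.88%, beside 25.3% and 18.3% of all genes, median 0.77). With the exonic-length trend removed 8 were higher and 2 lower (47.1% and 11.8%, beside 21.3% and 17.2% of all genes). With the canonical one the counts were 7 and 3 (41.2% and 17.6%, beside 18.1% and 14.5%). Nav3, a navigator protein, rose most of them (4.09 ± 1.16 to 18.2 ± 8.90 CPM, log2 fold change 2.15 ± 0.39, edgeR adjusted p = 0.00111), and the linker protein gene Clip4 fell (59.7 ± 5.20 to 36.7 ± 4.19 CPM, -0.70 ± 0.10, edgeR adjusted p = 0.000438). Of the 3 minus-end proteins 2 were higher, 2 with the exonic-length trend removed and 1 with the canonical one. Camsap2 rose from 9.24 ± 3.32 to 43.5 ± 17.9 CPM (2.23 ± 0.36, edgeR adjusted p = 0.000651) and Camsap1 from 39.5 ± 4.66 to 80.5 ± 21.8 CPM (1.03 ± 0.19, edgeR adjusted p = 0.00121). Camsap3 was not called at 49.9 ± 2.90 and 47.0 ± 2.84 CPM (-0.09 ± 0.08, edgeR adjusted p = 0.372).

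The lists of enzymes that act on microtubules or MAPs stand beside the same 25.3% of all genes called higher and 18.3% lower, or 21.3% and 17.2% with the exonic and 18.1% and 14.5% with the canonical-length trend removed. Without 24m replicate 1 these shares were 27.8% and 21.9%. Among 7 severing enzymes, the katanin-like Katnal1 rose (log2 fold change 0.95 ± 0.11), the katanin subunit Katna1 fell (-0.74 ± 0.11) and 5 were not called (median 0.35). Without 24m replicate 1, 3 severing enzymes were higher (42.9%) and 1 lower (14.3%), and with the exonic-length trend removed 0 were higher (1 at an unadjusted p under 0.05, edgeR) and 3 lower (42.9%). With the canonical-length trend removed 0 were higher (1 at an unadjusted p under 0.05) and 2 lower (28.6%). The counts of this small list thus lay on either side of the background, depending on the setting. Of 20 kinases and phosphatases of tau and other MAPs, 9 were higher, 1 lower and 10 not called (median 0.41), against 6 and 2 with the exonic and 4 and 1 with the canonical-length trend removed. Ttbk1, a neuronal tau-tubulin kinase, rose from 27.4 ± 2.30 to 108 ± 16.9 CPM (1.98 ± 0.13, edgeR adjusted p = 1.66e-05), and the tau kinase gene Cdk5 fell from 236 ± 13.6 to 147 ± 34.7 CPM (-0.69 ± 0.15, edgeR adjusted p = 0.0029). Of 18 tubulin-modifying enzymes, 5 were higher and 1 lower (median 0.21), with the glutamylase gene Ttll7 highest (1.30 ± 0.28) and Svbp, the partner of the vasohibin detyrosinases, lowest of those called (-0.83 ± 0.19). The counts of this list were 3 and 4 with the exonic and 5 and 5 with the canonical-length trend removed, and 5 and 2 without 24m replicate 1. Of 7 collapsin response mediators and TPPP genes, 3 were higher and 1 lower (median 0.42), 3 and 1 with the exonic-length trend removed and 3 and 2 with the canonical one. Tppp, a tubulin polymerisation factor of oligodendrocytes, rose from 6.76 ± 2.28 to 44.6 ± 16.0 CPM (2.72 ± 0.32, edgeR adjusted p = 0.000128), and Tppp3 was called lower at the threshold (-0.58 ± 0.22, edgeR adjusted p = 0.039) with overlap between the ages.

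**Figure D5:**
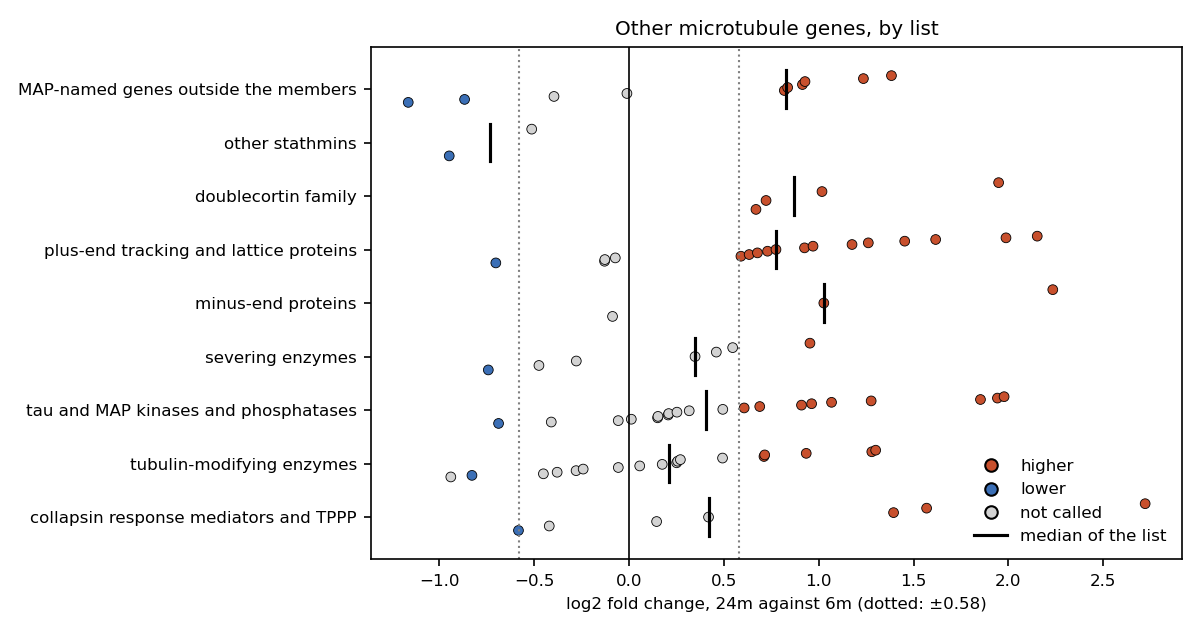
Log2 fold change, 24m against 6m, of 88 further microtubule genes in 9 lists. Each point is a gene, coloured by its call, vertical bars are list medians and dotted lines mark 0.58. Medians run from -0.73 (other stathmins) to 1.03 (minus-end proteins).

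Genes whose pattern over the 8 libraries was most like that of 2 members were looked up among 13538 genes by Pearson's r of log2 CPM, as a description only, since the libraries share the age difference and the length trend. For Map2 they were Fnip2 (r = 0.9994), Sphkap (r = 0.9993) and Cers6 (r = 0.9993), with log2 fold changes of 2.38, 2.06 and 2.11. For Stmn1 they were Eif1 (r = 0.9994), Abhd14a (r = 0.9993) and Gabarapl2 (r = 0.9988), with -0.75, -1.05 and -0.58. The canonical transcripts of the first group are 7237 to 8244 bases long and those of the second 1363 to 1690 bases.

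Cell type markers were read in the same libraries, because the members differ in which cells express them. No marker was at 0 in any library, and the 9 neuron markers ranged in their 6m means from 10.8 CPM (Gad2) to 1380 CPM (Slc17a7). The counts of markers called below stand beside 25.3% of all genes called higher and 18.3% lower. Of 9 neuron markers 3 were higher and 1 lower, and their summed level was 4808 to 5263 CPM at 6m and 5506 to 5839 CPM at 24m. Of 5 immature neuron markers 3 were higher and 1 lower, with a summed level of 1113 to 1191 CPM at 6m and 707 to 875 CPM at 24m that came mostly from Tubb2b. Of 7 astrocyte markers 6 were higher (467 to 519 and 970 to 1080 CPM), of 6 oligodendrocyte markers 1 (3282 to 4137 and 3540 to 4159 CPM) and of 3 oligodendrocyte precursor markers 1 (126 to 155 and 154 to 189 CPM). Of 6 microglia markers 2 were higher (281 to 286 and 320 to 369 CPM), and of 5 endothelial markers 1 was higher and 1 lower (36.5 to 54.1 and 25.5 to 39.9 CPM). Mitochondrially encoded genes took 5.26 to 6.52% of counts at 6m and 3.18 to 3.69% at 24m. The part of these differences in the levels of the members was not tested.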

How the data were processed

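Libraries of poly(A) RNA from 4 male mice of 6 months and 4 of 24 months were compared. The authors trimmed reads with Trim Galore, aligned them to GRCm39 with HISAT2 2.1.0 (submitters' processing notes) and counted them per Ensembl gene by featureCounts. The deposited values are raw whole-number counts per gene and library, with no replicates pooled. In their own analysis they dropped genes of 5 reads or fewer and used quantile and row-median normalization and DESeq2.

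The 10 members and the gene lists were chosen with earlier results of these data known, and the study itself names Map2 from these samples. Named list genes are the called ones with the highest and lowest fold change, and every gene in lists of up to 4. The 3 genes most like Map2 and Stmn1 had a mean of at least 1 CPM. Identifiers of 22281 of 22430 genes matched GENCODE, and the rest held 0.31% of counts. The 16730 genes that exceeded 5 counts in 4 or more of the 8 libraries were fitted with edgeR 4.0.16 (R 4.3.3) in a model of age with TMM scaling, and p was adjusted over all of them. Standard errors are the log2 fold change over the square root of F, and log2 CPM used a prior count of 2. No pair of replicates agreed within sampling noise (chi-square 8.24 to 425 per degree of freedom). Ratios within libraries were compared by exact permutation with scipy 1.17.1. Copies were searched with minimap2 2.31-r1302. The fits were tested on simulated data.

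Alternatives were other scalings, DESeq2 1.42.0, limma-voom (limma 3.58.1), other filters and limits, fits without each library, the replicate number as a block, and per-library offsets for smoothed trends (span 0.3) over exonic length, GC content or canonical transcript length, the last chosen after seeing the data. Count totals limit the precision of rare genes, and isoforms were not analysed here.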

Additional observations from a re-analysis of the deposited data

How the results depend on the processing

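Over 18 results and 23 alternative settings, 302 of 334 values kept their direction and their side of the threshold, or for counts stayed within 1.5 times. Ratios without 1 library are counted there by direction, because their p could not stay under 0.05. By adjusted p alone, the fold changes of the members are those of the edgeR fit with TMM scaling and could not differ. The count therefore includes values that were not free to change. Leaving out each library in turn changed no call of a member: 3 members were higher and 2 lower in each of the 8 fits, with Map2 at 2.72 to 3.38, Map1a at 1.12 to 1.34, Map4 at 1.13 to 1.22, Map1b at -1.08 to -0.64 and Stmn1 at -0.93 to -0.79. The within-library ratios were compared without single libraries as values only, since 3 against 4 libraries cannot go below an exact p of 0.0571.

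With library totals alone, 1 member and 4 list genes were lower, Map1b stood at -0.577, and Map7d1 (0.15) and Stmn2 (0.062) turned positive. The median of all genes moved by 0.21 there, and relative to it Map7d1 was at -0.06 and Stmn2 at -0.15. Of all genes 10.4% were called lower there. After quantile normalization with DESeq2, 0 members passed both thresholds as lower (1 at an unadjusted p under 0.05, 2 by edgeR and 2 by DESeq2 without quantile normalization), with Map1b at -0.48 (adjusted p = 0.119), Stmn1 at -0.51 (adjusted p = 9.78e-15) and Map7d1 at 0.29, where 23.3% of all genes were called lower. The median of all genes was -0.10 there, and relative to it Map7d1 was at 0.39, Stmn2 at 0.08, Stmn1 at -0.41 and Map1b at -0.38. With the GC trend removed Map7d1 was at 0.089 and Map1s at 0.49 (edgeR adjusted p = 9.57e-05), Map6 at 0.28 (0.0133), Stmn2 at -0.39 (0.002) and Mapt at 0.24 (0.107), all under the fold threshold. By adjusted p alone, 50 list genes were higher and 17 lower, where 62.6% of all genes passed in either direction.

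With the exonic-length trend removed, 27 list genes were higher and 16 lower, and Mapt (-0.37), Map1s (-0.25) and Map6 (-0.35) turned negative. With the canonical-length trend removed, chosen after seeing the data, 1 member was higher, 23 list genes were higher and 15 lower, Map1a (0.46), Map4 (0.44) and Stmn1 (-0.48) fell under the fold threshold, Map7d1 (-0.68) passed it, and Mapt (-0.50), Map1s (-0.0048), Map6 (-0.12) and Stmn2 (0.10) changed sign. The offsets follow length by construction, and the cause of the length trend was not tested.

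Replicate numbers gave correlations of same-numbered deviations of 0.27, 0.14, 0.08 and -0.35 and do not pair the animals. The replicate block changed no call of a member (Map2 2.93, Map1a 1.20, Map4 1.16, Map1b -0.88, Stmn1 -0.86) and moved the calls over all genes from 4237 higher and 3058 lower to 4112 and 3130. The block with the exonic-length trend removed gave 26 list genes higher and 16 lower, with Mapt at -0.37, Map1s at -0.27 and Map6 at -0.36.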
